A study of Mus musculus with 4 samples.

Results

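The genes described here encode the matrix metalloproteases (Mmp), the ADAM proteases (a disintegrin and metalloprotease), their secreted relatives with thrombospondin repeats (Adamts), the Adamts-like proteins (Adamtsl) and the tissue inhibitors of metalloproteases (Timp). They were taken by gene symbol alone, and 84 of the 46946 genes in the count table belonged to them. RNA was measured in 4 untreated mouse tumours that form a single group, called PDGFB K27M in the sample titles. Every tumour shares PDGF and K27M, a change of lysine 27 of histone H3 that blocks its methylation, and no second group was analysed here. The sample labels name neural stem cells as the origin, the text on the whole series names injected DIPG (diffuse intrinsic pontine glioma) cells with mutant H3.3, and the age and strain of the mice are given in neither. The libraries are called T14, T10, T8 and TUN, and the labels do not say whether they come from 1 line of cells or from several.

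Mmp, Adam and Adamts enzymes hold a zinc ion in the active site and cut proteins outside the cell or at its surface. Mmp enzymes are best known for degrading matrix, and those anchored in the membrane also activate other Mmp enzymes. Adam enzymes release the outer part of membrane proteins, such as Notch receptors, the amyloid precursor protein and growth factors. Many Adamts enzymes cut the proteoglycans that fill the space between brain cells. Timp proteins block the active site of these enzymes, and Adamtsl proteins resemble Adamts proteins but lack the protease domain.

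The zinc-binding stretch separates the enzymes from their relatives and is shown for the members the results turn on. The motif searched has 11 codons, with histidine codons in the first, the fifth and the last place and a glutamate codon in the second, and was sought in frame in the coding sequence of GENCODE vM21 transcripts (GRCm38). Capitals mark these 4 codons, and coordinates include any intron between the first and last base.
Mmp15 (chr8:95368576-95368626, plus strand): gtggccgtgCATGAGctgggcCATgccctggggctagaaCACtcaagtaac
Mmp14 (chr14:54437618-54437668, plus strand): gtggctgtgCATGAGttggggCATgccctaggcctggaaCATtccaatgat
Mmp9 (chr2:164951124-164951174, plus strand): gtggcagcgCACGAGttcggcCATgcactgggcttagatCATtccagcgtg
Mmp10 (chr9:7504849-7504899, plus strand): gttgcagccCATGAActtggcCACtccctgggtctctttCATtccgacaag
Adam9 (chr8:24990317-24990367, minus strand): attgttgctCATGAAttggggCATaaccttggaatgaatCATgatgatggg
Adam10 (chr9:70754287-70761594, plus strand): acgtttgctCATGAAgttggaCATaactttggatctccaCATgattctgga
Adam17 (chr12:21336723-21336773, minus strand): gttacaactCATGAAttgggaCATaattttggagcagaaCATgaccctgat
Adamts1 (chr16:85799182-85799554, minus strand): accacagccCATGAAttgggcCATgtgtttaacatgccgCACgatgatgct
All 7 membrane-type and 16 secreted Mmp genes held the motif, as did all 19 Adamts genes, the 9 Adam genes known from many tissues and 11 of 21 Adam genes of the reproductive tract. The eighth codon encodes glycine in all of these except 6 Adamts genes that are known to cut proteoglycans, with asparagine in Adamts1, Adamts4, Adamts9, Adamts15 and Adamts20 and another codon in Adamts8. The motif was found in none of the 4 Timp and 5 Adamtsl genes, nor in the brain genes Adam11, Adam22 and Adam23. For Adam22 and Adam23 the stretch that aligned without a gap to the motif of Adam9 is given next, with the same positions in capitals.
Adam22 (chr5:8143055-8143105, minus strand): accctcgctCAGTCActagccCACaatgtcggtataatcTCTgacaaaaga
Adam23 (chr1:63547754-63547804, plus strand): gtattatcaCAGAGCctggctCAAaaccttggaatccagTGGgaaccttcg
Adam22 kept 1 and Adam23 kept 0 of the 4 motif codons, and Adam11 aligned only with a gap and is not shown.

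Levels are given as CPM, which are counts scaled to the size of each library, and where genes are compared with each other as RPKM, which also divides by the length of the gene in kilobases. A gene was called detected where it had 1 CPM or more in all 4 tumours, which held for 45 of the 84 members. Another 25 had some counts and 14 had 0 counts in every library, which allows up to 0.122 to 0.134 CPM per library from counting error alone. Mmp14, Adam10 and Timp1, the genes taken to mark the family, were all detected. Of the 45 detected members 34 held the zinc-binding motif, and the other 11 were the 4 Timp genes, 4 Adamtsl genes and the 3 brain Adam genes. Library totals were 21664889 to 24369339 counts. Markers of 12 kinds of cells or states were read beside the members, from lists. Neuron genes (17 of 17 detected) summed to 5750 CPM in T14, 5089 CPM in T10, 1396 CPM in T8 and 1260 CPM in TUN, and 14 of the 17 varied more than the trend by the test described below. Astrocyte genes (12 of 12 detected) summed to 7724, 4934, 2273 and 2185 CPM in the same order and mature oligodendrocyte genes (11 of 12 detected) to 4163, 5524, 1352 and 1322 CPM. Mitosis genes were highest in TUN for 10 of 10, with sums of 730, 742, 1304 and 1704 CPM. In bulk tissue fewer cells of a type and less RNA per cell cannot be told apart.

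Mmp15, which encodes the membrane-type protease MT2-MMP, was by far the most abundant member. It reached 384 RPKM in T14, 353 RPKM in T10, 664 RPKM in T8 and 420 RPKM in TUN, a mean of 455 ± 142 RPKM (SD, n = 4). With 1978 ± 617 CPM it ranked 16 among all genes of the table, and between 8 and 19 within the single libraries. It took 35.9% of the summed CPM of the members in T10, 38.7% in T14, 39.8% in TUN and 51.9% in T8. T8 stood above the other 3 tumours, which lay close together, and the gene spanned 1.88-fold between libraries. The gene (ENSMUSG00000031790.7, chromosome 8, 95352268 to 95374293 in mm10) shares no exon with another gene of the table.

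**Figure D1:**
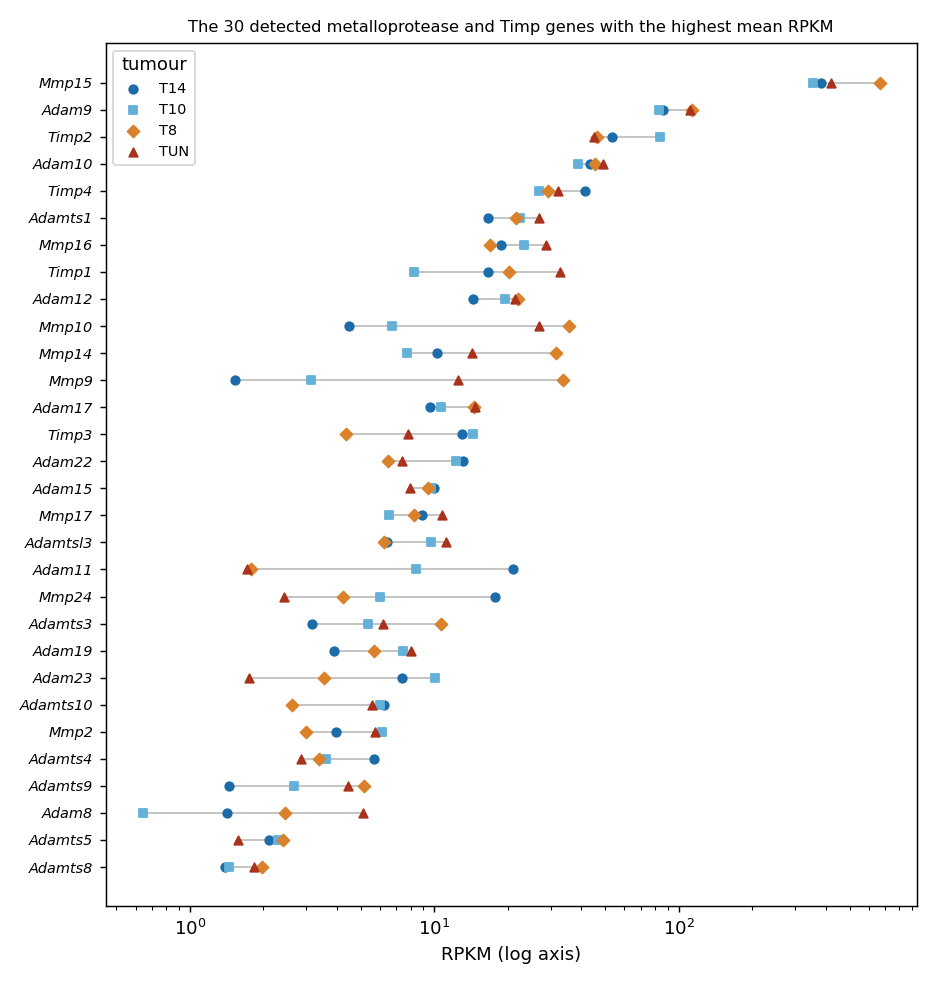
RPKM (log axis) of the 30 detected members with the highest mean RPKM, one row per gene and one point per tumour, with a grey line from the lowest to the highest tumour. Mmp15 lies at 353 to 664 RPKM in all 4 tumours, above every other member, while Mmp9 (21.9-fold) and Adam11 (12.2-fold) have the longest lines.

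The other membrane-type Mmp genes were much lower. Mmp16 (MT3-MMP) stood at 21.8 ± 5.21 RPKM, Mmp14 (MT1-MMP, the main activator of the gelatinase Mmp2) at 15.9 ± 10.6 RPKM, and Mmp17, whose product is held in the membrane by a lipid anchor, at 8.62 ± 1.73 RPKM. Mmp14 had 44.1 CPM in T14, 33.3 CPM in T10, 135 CPM in T8 and 61.1 CPM in TUN. Like Mmp15 it was highest in T8 and lowest in T10, with a span of 4.04-fold against 1.88-fold for Mmp15. Mmp14 lay below Mmp15 in every tumour, with log2 ratios per length of -5.21, -5.49, -4.40 and -4.88 in T14, T10, T8 and TUN, a mean of -4.99 ± 0.47 (SD, n = 4). An exact two-sided sign-flip test gave p = 0.125 for this and for each of the other 4 ratios below (adjusted p = 0.125 over the 5), the smallest p that 4 tumours allow, so no ratio can pass 0.05. Mmp25, also lipid-anchored, had 3.24 ± 1.42 CPM, and Mmp23 did not reach 1 CPM in T8 and TUN. Mmp24 (MT5-MMP), known from neurons, is described with the variable genes.

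Among the Adam genes known from many tissues, 7 of 9 were detected with a median SD of log2 CPM between tumours of 0.28, the lowest of the groups with a detected member. Adam9 led with 347 CPM in T14, 334 CPM in T10, 455 CPM in T8 and 448 CPM in TUN (mean 396 ± 64.3 CPM, SD, n = 4), or 98.7 RPKM on average. Adam10, which cuts Notch receptors and neuroligins, had 213, 190, 223 and 241 CPM in the same order. The 4 values of Adam10 lay within 1.27-fold of each other. Adam17, which releases TNF and ligands of the EGF receptor, had 69.0 CPM in T14, 76.1 CPM in T10, 104 CPM in T8 and 105 CPM in TUN. Per length Adam10 exceeded Adam17 in 4 of 4 tumours, by 1.84 ± 0.22 log2 units (exact sign-flip p = 0.125). Adam12, known from muscle and fibroblast-like cells, stood at 19.3 ± 3.46 RPKM, Adam15 at 9.25 ± 0.884 and Adam19 at 6.26 ± 1.87 RPKM (n = 4). Adam8, an Adam of leukocytes, was the least even of the 7, with 6.57 CPM in T14, 2.97 CPM in T10, 11.3 CPM in T8 and 23.6 CPM in TUN. It did not pass the test for variable genes (adjusted p = 0.212 in the edgeR goodness of fit; 0.0425 with 1 common dispersion). Macrophage genes, 7 of 9 detected, summed to 237 CPM in T14, 153 CPM in T10, 399 CPM in T8 and 1031 CPM in TUN, highest and lowest in the same tumours as Adam8, with Chil3 near 0. Lyz2, a lysozyme gene, held most of each sum, with 195, 113, 337 and 951 CPM in the same order. Without Lyz2, an alternative chosen after seeing the data, the sums were 42.1, 40.2, 61.8 and 80.5 CPM. Cd14, Ccr2 and Cd163 were highest in T8, the other 6 genes of the list were highest in TUN, and their part in the level of Adam8 was not tested. Adam28 had 0 counts throughout. Adam33 had 6 counts in T14, 109 counts in T10, 4 counts in T8 and 2 counts in TUN, and so was too low in 3 libraries to be tested in the main setting. Choroid plexus and ependymal genes, 3 of 8 detected, were also highest in T10, with sums of 61.7 CPM in T14, 632 CPM in T10, 50.4 CPM in T8 and 13.8 CPM in TUN, most of that in T10 from Ttr, and their part in the Adam33 counts was not tested.

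All 4 Timp genes were detected, and they did not share an order of tumours. Timp2, which also takes part in the activation of Mmp2 by Mmp14, had 207 CPM in T14, 326 CPM in T10, 181 CPM in T8 and 176 CPM in TUN. Timp4, known from heart and brain, had 244, 158, 171 and 189 CPM in that order, and Timp3, which binds to the matrix and blocks Adam17 as well as Mmp enzymes, had 106, 118, 35.4 and 63.8 CPM. Timp1, the inhibitor induced in reactive tissue, had 14.7 CPM in T14, 7.33 CPM in T10, 17.9 CPM in T8 and 29.0 CPM in TUN. Timp2 was highest in T10, where Timp1 and Timp4 were lowest, and Timp3 was lowest in T8. Timp1 lay below Timp2 in 4 of 4 tumours, with log2 ratios per length of -1.67, -3.33, -1.20 and -0.47 and a mean of -1.67 ± 1.21 (exact sign-flip p = 0.125). Mmp14 lay below Timp2 in 4 of 4 tumours as well, with log2 ratios of -2.36, -3.41, -0.56 and -1.66 in the same order of libraries (exact sign-flip p = 0.125). None of the Timp genes passed the test for variable genes. The libraries do not mark strand, so reads of overlapping genes cannot be told apart. Timp3 shares 21.3% of its exon length with Syn3 on the other strand, a gene with 4.11 to 11.4 CPM. Timp4 shares 1.53% with Syn2, which had 185 CPM in T14, 142 CPM in T10, 42.4 CPM in T8 and 55.6 CPM in TUN.

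**Figure D2:**
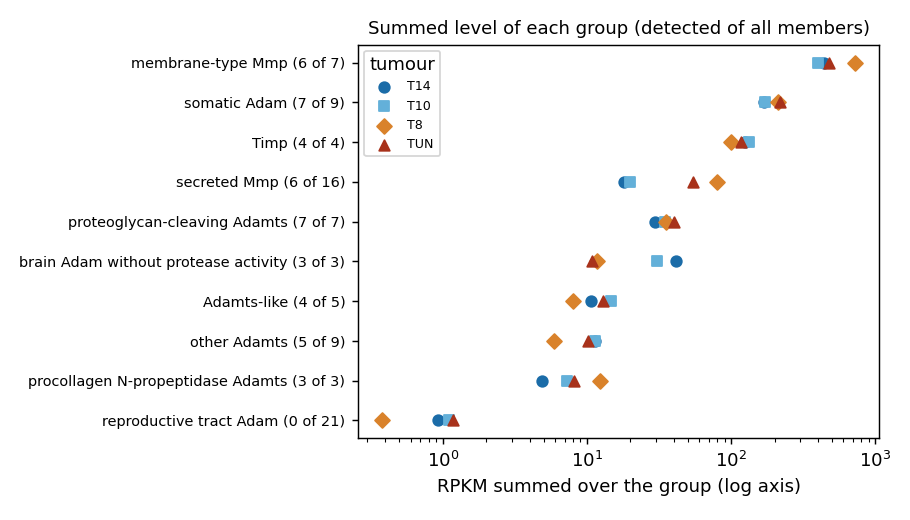
RPKM summed over the members of each group (log axis), one row per group and one point per tumour, with the number of detected members of all members in brackets. Membrane-type Mmp genes sum to 398 to 726 RPKM through Mmp15. Secreted Mmp genes sum to 17.9 and 19.7 RPKM in T14 and T10 and to 79.3 and 54.3 RPKM in T8 and TUN. Most of the sums in T8 and TUN comes from Mmp9 (33.6 and 12.5 RPKM) and Mmp10 (35.4 and 26.9 RPKM). In T14 and T10 Mmp9 has 1.53 and 3.14 RPKM and Mmp10 has 4.49 and 6.72 RPKM. The brain Adam genes sum to more in T14 and T10 than in T8 and TUN.

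Genes that differ between the tumours beyond what genes of like abundance do were sought with a goodness of fit in edgeR, an intercept-only model at the trended dispersion with Benjamini-Hochberg adjusted p-values across the 14266 genes tested. It called 4.34% of all genes tested (619 genes). Of the 84 members 50 passed the low-count filter, which asks for a minimum level in all 4 libraries, and 5 of these were called, or 10% of those tested. They were Mmp9 (adjusted p = 3.67e-07), Adam11 (adjusted p = 6.04e-06), Mmp10 (adjusted p = 0.00331), Mmp24 (adjusted p = 0.0154) and Adam23 (adjusted p = 0.0277). An unadjusted p under 0.05 was reached by 13 members, or 26% of the 50 tested, and by 1196 genes, or 8.38% of all tested. DESeq2, which marks dispersion outliers in place of a test, marked 78 genes and 0 members. The 5 genes fell into opposite patterns, with Mmp9 and Mmp10 highest in T8 and the other 3 highest in T14 or T10.

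Mmp9 (chr2:164940780-164955850, mm10) encodes gelatinase B, which cuts denatured collagen and basement membrane and is known from leukocytes and invading cells. It had 5.42 CPM in T14, 11.1 CPM in T10, 119 CPM in T8 and 44.3 CPM in TUN. T8 was 21.9-fold above T14, the longest span of any detected member, and both T8 and TUN lay above T14 and T10. Mmp10 (chr9:7502352-7510238), stromelysin 2, which cuts matrix proteoglycans and activates other Mmp enzymes, had 7.72 CPM in T14, 11.6 CPM in T10, 60.9 CPM in T8 and 46.2 CPM in TUN. Its order of tumours was the same as that of Mmp9. Calls with the highest value in T8 made up 0.147% of all genes tested (21 genes), and Mmp9 and Mmp10 are 2 of these 21. Mmp9 stayed past the threshold when any 1 library was left out (adjusted p up to 0.0127 over all edgeR settings), and the call of Mmp10 was lost without T14 (adjusted p = 0.0596). Neutrophils are known to store Mmp9 protein. Neutrophil genes were near 0, with none of 8 detected and sums of 0.692 to 3.15 CPM per library. Elane had 0 counts everywhere, and the part of neutrophils in the level of Mmp9 was not tested. Microglia genes, 12 of 12 detected, summed to 905 CPM in T14, 741 CPM in T10, 826 CPM in T8 and 985 CPM in TUN. Endothelial genes, 10 of 10 detected, summed to 331, 283, 298 and 273 CPM in the same order. Neither sum had the order of Mmp9, but both lists held genes with opposed patterns. TUN was the top tumour of 6 microglia genes, T14 of 5 and T10 of 1. Trem2 and Tyrobp had T8 and TUN as their 2 highest tumours, whereas P2ry12 and Tmem119 had T14 and T10. T8 was the top tumour of 5 endothelial genes, T14 of 4 and TUN of 1. Kdr, with 34.2, 38.3, 48.8 and 41.4 CPM, had the order of Mmp9. The part of microglia and endothelial genes in the level of Mmp9 was not tested. Oligodendrocyte precursor genes, 10 of 10 detected, summed to 9365, 10849, 15103 and 12205 CPM, highest in T8 and next in TUN as Mmp9 and Mmp10 were, and their part in either gene was not tested. Macrophage genes (237, 153, 399 and 1031 CPM, or 42.1, 40.2, 61.8 and 80.5 CPM without Lyz2) and mitosis genes (730, 742, 1304 and 1704 CPM) also had T8 and TUN as the 2 highest tumours, but with TUN above T8, and their part was not tested either. Pericyte and fibroblast genes, 11 of 11 detected and 0 called, summed to 1060, 1326, 1355 and 1427 CPM. Gelatinase A, the product of Mmp2, did not follow Mmp9, with 12.1 CPM in T14, 18.6 CPM in T10, 9.05 CPM in T8 and 17.3 CPM in TUN.

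**Figure D3:**
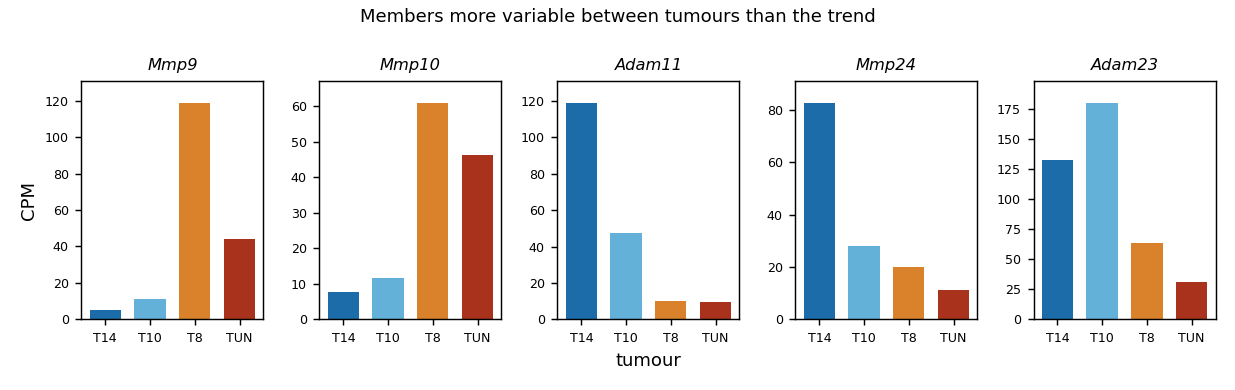
CPM of the 5 members called by the goodness of fit, one panel per gene and one bar per tumour, each axis starting at 0. Mmp9 and Mmp10 are highest in T8 (119 and 60.9 CPM) and next in TUN, whereas Adam11 and Mmp24 are highest in T14 (119 and 82.7 CPM) and Adam23 in T10 (180 CPM).

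Adam11, Adam22 and Adam23, without the zinc-binding motif, are known as receptors of secreted Lgi proteins at synapses and along axons. Adam11 (chr11:102761439-102780262) had 119 CPM in T14, 47.5 CPM in T10, 10.1 CPM in T8 and 9.73 CPM in TUN, and Adam23 (chr1:63445891-63596276) had 132, 180, 63.4 and 31.3 CPM in the same order. Adam22 had 188 CPM in T14, 176 CPM in T10, 92.5 CPM in T8 and 105 CPM in TUN and was not called. In all 3 genes both T14 and T10 lay above both T8 and TUN, by the widest margin in Adam11, whose values span 12.2-fold. Per length Adam22 exceeded Adam23 in 4 of 4 tumours, with log2 ratios of 0.82, 0.28, 0.85 and 2.01 in the same order (exact sign-flip p = 0.125). Of the 7 genes listed as partners of these receptors 4 were called (against 4.34% of all genes), namely Lgi1, Lgi2, Lgi3 and the potassium channel gene Kcna1, and each was higher in T14 and T10 than in T8 and TUN. Lgi1, a gene of inherited epilepsy, had 34.8 CPM in T14, 26.6 CPM in T10, 3.02 CPM in T8 and 2.90 CPM in TUN. Dlg4, which encodes the synaptic scaffold PSD-95, and Kcna2 and Lgi4 were not called. Neuron, astrocyte and mature oligodendrocyte genes as summed above all had the same 2 highest tumours. The mature oligodendrocyte sum was highest in T10, as Adam23 was, and the neuron and astrocyte sums were highest in T14, as Adam11 and Adam22 were. Single genes of the neuron and astrocyte lists were split. T10 was the top tumour of 7 neuron genes and T14 of 10, and T10 was that of 2 astrocyte genes and T14 of 10. Nefm, a neuron gene with 161, 348, 58.7 and 16.8 CPM, had the order of Adam23. The part of these cell types in the values was not tested. Leaving out T10 or TUN ended the call of Adam23 (adjusted p = 0.292 and 0.812), while that of Adam11 held under every edgeR setting (adjusted p up to 0.0388).

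Mmp24 (chr2:155775342-155818366) had 82.7 CPM in T14, 28.1 CPM in T10, 19.9 CPM in T8 and 11.3 CPM in TUN. T14 stood far above the others, and the call was lost without T14 (adjusted p = 0.99998) and without TUN (adjusted p = 0.166). In sum neuron genes (5750, 5089, 1396 and 1260 CPM in the same order) and astrocyte genes (7724, 4934, 2273 and 2185 CPM) were also highest in T14 and next in T10. However, 7 of 17 neuron genes and 2 of 12 astrocyte genes were highest in T10. The part of these cell types in the level of Mmp24 was not tested. Mmp24 shares 13.6% of its exon length with BC029722 on the other strand. BC029722 had 23.0 CPM in TUN as its lowest and 32.0 CPM in T10 as its highest level.

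Across the 45 detected members the spread between tumours was wider than across all detected genes. The median SD of log2 CPM was 0.52 in the members and 0.28 in all 13245 detected genes, at a similar median level (31.6 and 36.4 CPM), and 26 members (57.8%) spanned over 2-fold against 25.9% of all detected genes. These shares are descriptions with no test. T14 and T10 were the 2 highest libraries for 15 members (33.3%, against 32.0% of all detected genes), and T8 and TUN for 18 (40%, against 33.8%). The single library with the highest value was T14 for 11 members, T10 for 9, T8 for 13 and TUN for 12.

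**Figure D4:**
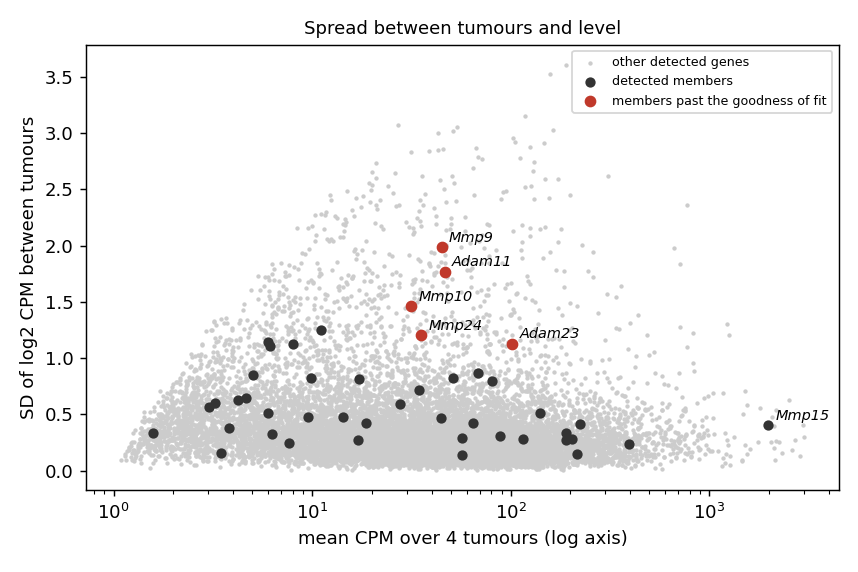
SD of log2 CPM between the 4 tumours against mean CPM (log axis) for all detected genes (grey), detected members (dark) and the 5 members past the goodness of fit (red). Mmp9 lies highest among the members, and Mmp15, the most abundant member, has an SD of 0.41.

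Mmp10 lies in a cluster of 10 Mmp genes within 427072 bases of chromosome 9 (7272514 to 7699585 in mm10). Only Mmp10 was detected there, and 9 of the 10 genes had under 1 CPM in at least 1 tumour. Mmp12, the macrophage elastase, had 66 counts in T14, 23 counts in T10, 170 counts in T8 and 167 counts in TUN. Mmp13, collagenase 3, had 24, 17, 81 and 84 counts in the same order, and Mmp3, stromelysin 1, had 107, 17, 48 and 94. Mmp12 and Mmp13 were thus higher in T8 and TUN than in T14 and T10, as Mmp10 was, while Mmp3 was highest in T14. Macrophage genes, as summed beside Adam8, also had higher sums in T8 and TUN than in T14 and T10, with and without Lyz2. Within that list Mrc1 (2.64 CPM in T8, 4.68 CPM or more elsewhere) and F13a1 (1.38 CPM in T8, 4.08 CPM or more elsewhere) were lowest in T8, and the part of these genes in the level of Mmp12 was not tested. None of the 3 was called (adjusted p = 0.396, 0.520 and 0.576 in the edgeR goodness of fit; 0.0452 for Mmp12 with 1 common dispersion). Mmp8 and Mmp27 had at most 16 counts in a library, Mmp20 at most 3, Mmp1a and Mmp1b had 1 count each in all and Mmp7 had 0.

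**Figure D5:**
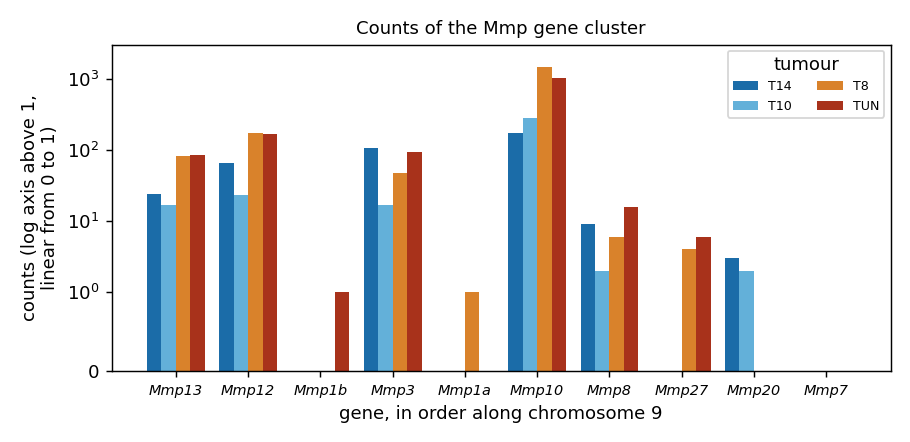
Counts of the 10 Mmp genes of the chromosome 9 cluster in their order along the chromosome, one bar per tumour, on an axis that is linear from 0 to 1 and logarithmic above. Mmp10 reaches 1454 counts in T8 and 1035 in TUN, against 174 in T14 and 284 in T10, and the other genes stay at 170 counts or fewer.

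AP-1 dimers of Fos and Jun proteins are known regulators of several genes in this cluster, so the 250 bases before the start sites were searched for TGACTCA and its reverse complement TGAGTCA, a pair that covers both strands. The sequences come from RefSeq (GRCm38.p6). The match is in capitals in those of the 4 most abundant genes of the cluster, which are shown because they lie in 1 cluster and differ in level.
Mmp10 (chr9:7502092-7502341, plus strand): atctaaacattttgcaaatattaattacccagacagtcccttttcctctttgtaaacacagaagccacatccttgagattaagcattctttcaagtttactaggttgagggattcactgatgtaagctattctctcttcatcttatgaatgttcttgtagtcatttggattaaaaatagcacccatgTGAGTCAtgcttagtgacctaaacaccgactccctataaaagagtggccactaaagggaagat
Mmp3 (chr9:7445572-7445821, plus strand): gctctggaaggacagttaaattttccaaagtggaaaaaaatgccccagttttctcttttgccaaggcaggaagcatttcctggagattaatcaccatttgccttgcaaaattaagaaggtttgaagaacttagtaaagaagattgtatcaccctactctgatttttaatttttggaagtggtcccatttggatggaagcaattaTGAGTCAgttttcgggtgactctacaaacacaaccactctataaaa
Mmp12 (chr9:7347124-7347373, plus strand): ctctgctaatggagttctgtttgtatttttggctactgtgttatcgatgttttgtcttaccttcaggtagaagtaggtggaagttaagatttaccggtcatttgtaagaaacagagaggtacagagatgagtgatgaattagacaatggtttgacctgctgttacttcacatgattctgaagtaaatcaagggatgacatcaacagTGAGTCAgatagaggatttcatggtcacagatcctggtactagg
Mmp13 (chr9:7272264-7272513, plus strand): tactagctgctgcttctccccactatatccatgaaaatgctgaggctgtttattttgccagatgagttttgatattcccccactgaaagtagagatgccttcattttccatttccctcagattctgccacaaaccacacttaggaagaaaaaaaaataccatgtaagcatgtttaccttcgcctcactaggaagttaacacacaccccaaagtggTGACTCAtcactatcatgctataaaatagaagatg
The motif begins 63 bases before the start in Mmp10, 46 in Mmp3, 44 in Mmp12 and 35 in Mmp13. For Mmp12 this start lies inside the gene, and the window at its first annotated start (chr9:7344147-7344396) holds no motif. At 1 start or more the motif was present in 7 of the 10 cluster genes and in 5.16% of 27025 genes. Of the 53 members with such a sequence 9 held it (17.0%), namely the 7 cluster genes, Adam19 and Adam29. Among the 29 detected members with a sequence 2 held it, Mmp10 and Adam19. No such sequence was available for Mmp9 and Adam11. Mmp12, Mmp7 and Adam19 also have annotated starts without the motif. Mmp1a, Mmp1b and Mmp7 hold the motif as well and had no more than 1 count in all. A match describes the letters of this window only.

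Of the other secreted Mmp genes, Mmp11 (stromelysin 3), Mmp19 and Mmp28 were detected at 3.82 ± 1.04, 4.65 ± 2.11 and 3.46 ± 0.396 CPM. Mmp19 shares 23.1% of its exon length with Tmem198b, which had 25.0 to 44.9 CPM, so its level is uncertain, and Mmp28 shares exons with 1700020L24Rik, which had 0.357 to 1.07 CPM. Mmp21 had 0 counts.

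All 7 Adamts genes of the proteoglycan-cleaving group were detected, and none was called. Adamts1 led with 88.1 CPM in T14, 119 CPM in T10, 114 CPM in T8 and 143 CPM in TUN (21.9 ± 4.22 RPKM). Adamts4 and Adamts5, the main aggrecanases, were lower, at 3.88 ± 1.24 and 2.10 ± 0.374 RPKM, and Adamts8 stood at 1.66 ± 0.283 RPKM. Adamts9 had 21.7 CPM in T14, 40.3 CPM in T10, 77.3 CPM in T8 and 66.6 CPM in TUN, a span of 3.56-fold that did not pass the test (adjusted p = 0.601). Adamts15 had 10.6, 7.69, 1.76 and 4.42 CPM in the same order, with T8 lowest, and Adamts20 had 4.84, 10.9, 6.33 and 17.6 CPM. Their substrates are large proteoglycans. Brevican (Bcan) stood at 571 CPM in T14, 663 CPM in T10, 776 CPM in T8 and 764 CPM in TUN, neurocan (Ncan) at 743, 782, 1223 and 997 CPM and versican (Vcan) at 461, 638, 366 and 536 CPM. Of 7 proteoglycan and link protein genes only Hapln4, a link protein of perineuronal nets, was called (119, 115, 30.3 and 15.2 CPM in the same order).

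The Adamts enzymes that trim procollagen were all detected. Adamts3 led with 17.2 CPM in T14, 29.2 CPM in T10, 57.8 CPM in T8 and 33.4 CPM in TUN, while Adamts2 had 11.5, 12.2, 2.22 and 5.94 CPM and Adamts14 had 2.31, 3.05, 7.50 and 7.32 CPM. Adamts2 was thus lowest in the tumour where Adamts3 and Adamts14 were highest, but none of them was called. Of 9 other Adamts genes 5 were detected, the highest being Adamts10, an enzyme of fibrillin microfibrils, at 5.10 ± 1.68 RPKM. Adamts18 had 205 counts in T14, 59 counts in T10, 4 counts in T8 and 0 counts in TUN, and did not pass the filter for the test. Adamts13, which trims von Willebrand factor and is known from liver, had at most 2 counts per library. Of the Adamtsl genes, Adamtsl3 was the highest with 49.4 CPM in T14, 75.3 CPM in T10, 48.3 CPM in T8 and 86.0 CPM in TUN, and Adamtsl5 was not detected because of TUN (0.848 CPM, with 3.99, 7.04 and 2.09 CPM in T14, T10 and T8).

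None of the 21 Adam genes known from testis and epididymis, where several serve sperm and egg binding, was detected. Of these 11 had 0 counts in every library and the other 10 at most 38 counts in a library. Adam5 had the most, with 25 counts in T14, 14 counts in T10, 6 counts in T8 and 38 counts in TUN. Germ cell genes read the same way were 0 of 10 detected, with sums of 0.461 to 1.73 CPM and Tnp1, Izumo1 and Ldhc at 0 counts. Adam1a and Adam1b have the same 51 bases around the zinc-binding motif. The rest of the 2 genes was not compared, and whether they share reads was not tested.

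Genes that assist, oppose or are cut by the members were read from lists in the same way. Of the 9 listed partners of Adam10 and Adam17, which carry these enzymes to the cell surface, 8 were detected and 0 of 8 tested were called. Frmd8, which stabilises the iRhom and Adam17 complex, had 104 CPM in T14, 102 CPM in T10, 231 CPM in T8 and 191 CPM in TUN, and Tspan14, a tetraspanin that escorts Adam10, had 42.8, 41.2, 64.5 and 38.7 CPM in the same order. Tspan5, another tetraspanin of Adam10, and Rhbdf1, which encodes iRhom1, followed at means of 12.5 and 11.2 RPKM. All 4 proprotein convertase genes, whose products remove the inhibitory propeptide, were detected and none was called, with Pcsk6, Pcsk7, Furin and Pcsk5 at 13.3, 10.2, 6.14 and 0.539 RPKM on average. A mixed list held protease inhibitors, clearance genes and Bsg, which is neither (7 of 7 detected, 0 called). Cst3, Serpine2, Bsg and Lrp1 led it at mean levels of 481, 280, 279.6 and 49.6 RPKM. A place in this list does not mean that a gene product blocks the enzymes described here. Reck, a membrane-bound inhibitor of Mmp enzymes, stood at 1.71 RPKM. In the plasminogen system, another protease cascade of the matrix, Plat was the highest at 75.9 RPKM, Plau and Plaur stood at 5.92 and 2.91 RPKM, Plg was not detected and 0 of 3 tested genes were called. Of 16 shed substrates 14 were tested and only L1cam, an adhesion molecule of axons, was called, with 55.9 CPM in T14, 50.9 CPM in T10, 7.88 CPM in T8 and 12.3 CPM in TUN. App, Prnp, Tnfrsf1a and Ncam1 led that list at 339, 188, 53.8 and 42.8 RPKM.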

How the data were processed

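RNA was measured as polyA libraries (TruSeq RNA kit, which does not mark strand; HiSeq2500, per the labels' protocols) in 4 tumours of 1 group. The deposited table holds whole-number counts per gene and gene lengths. Per the submitters' processing notes, the authors used STAR, featureCounts and mm10 for these counts. The table carries GENCODE vM8 identifiers. Tool versions, the strand setting and the handling of multiply mapped reads were not given in the sources used here. Symbols were found for 46451 of 46946 identifiers. The table's tumour codes match no single sample title, so the 4 columns were used as replicates without numbers and 0 were left aside. The labels do not say that the tumours came from separate animals, so p-values measure the spread between these samples only.

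Counts were scaled by TMM in edgeR 4.0.16 (R 4.3.3) and given as CPM or, with the deposited gene length, RPKM. log2 CPM used a prior count of 2 and log2 ratios log2(RPKM + 0.1). Low genes were filtered by filterByExpr, and the goodness of fit compared the residual deviance (3 degrees of freedom) with a chi-square distribution at the trended dispersion, with a threshold of 0.05 on the adjusted p. DESeq2 1.42.0 served as an alternative, and the step was tested on simulated data. With 1 group no contrast between conditions exists. A count of 0 allows up to 3 counts, and such limits cover counting error only. Described by name were members past the test, the 30 highest by RPKM among those detected, those of the 5 ratios, the Timp genes, the 3 detected members standing farthest from the nearest library, for each library, the 5 highest not detected, and, in the lists of genes that assist, oppose or are cut by the members, those called or among the 4 highest by RPKM. Some further members and list genes were named after their values were seen. Motif stretches were aligned with Biopython 1.88 (BLOSUM62). The members and lists were chosen with earlier results of these data known.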

Additional observations from a re-analysis of the deposited data

How the results depend on the processing

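The number of members past the goodness of fit (5) was 5 with RLE size factors (4.33% of all genes tested were called there), 7 with a filter of 10 counts in all (4.12%), 6 without that filter (2.75%) and 6 with a common dispersion (5.06%), and between 3 and 5 when 1 library was left out (2.95% to 3.22%). DESeq2 marked 0 members and 78 genes (0.547%), against 619 genes in edgeR. The looser filters added Adam33 (adjusted p = 0.00698 to 0.00929) and Adamts18 (adjusted p = 4.46e-05 to 6.14e-05), which rest on T10 and on T14 with T10. Without the filter the call of Adam23 was lost (adjusted p = 0.0652), as with a common dispersion (adjusted p = 0.144). The median SD of log2 CPM over detected members was between 0.46 and 0.54 when 1 library was left out, lowest without T8. The cause of these shifts was not tested. All 5 log2 ratios kept their sign under a pseudocount of 1, without length correction and with any library left out. The count of detected members depends on the limit by construction. No paired analysis was possible because there is 1 group and the columns carry no replicate number.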
